A study of Mus musculus with 4 samples.

Results

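Chemokine ligand genes known from spleen stroma were compared between endothelial cells of mouse spleen with and without a reporter of the atypical chemokine receptor ACKR4. The 10 ligand genes, taken by name, were Ccl19, Ccl21a, Ccl25, Cxcl13, Cxcl12, Cxcl9, Cxcl10, Cxcl16, Cx3cl1 and Cxcl1. On the arrays 9 of the 10 had probes under their own names, 17 of 39429 probes in all, and Ccl21a had none under that name. All 9 were among the 17362 genes tested.

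Both groups were living cells (negative for the dye DAPI) without the leukocyte protein CD45 and with the endothelial protein CD31. They were sorted from spleens of Ackr4GFP/wt mice, digested for 45 min and then 20 min at 37 °C. These mice carry 1 reporter allele in place of 1 Ackr4 allele, so both groups are heterozygous, and green fluorescence stands in for the receptor. The ACKR4-positive group (GFP-positive cells) and the ACKR4-negative group (GFP-negative cells) had 2 arrays each, 1 from each of 2 independent sorts that pooled 2 to 3 mice. The age of the mice was not given in the sources used here.

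Chemokines are small secreted or membrane-bound proteins that guide leukocytes through G protein-coupled receptors. ACKR4 binds CCL19, CCL21 and CCL25 and carries them into the cell for degradation without classical signalling. In the spleen, CCL19 and CCL21 from reticular stroma guide T cells and dendritic cells to the T cell zone, and CXCL13 guides B cells to follicles.

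A level is the log2 signal of a probe minus the 75th percentile of its array, so a level of 0 equals that percentile. Levels of different probes were not set against each other. Signal was well above background for 54.9% to 58.3% of probes per array, and all 4 arrays were on 1 slide. The spiked-in control RNA was weak on ACKR4-negative replicate 1, with a median signal of 837 against 2749 to 3489 on the other 3 arrays. Ackr4 itself had levels of -0.21 and 2.55 in ACKR4-positive cells, against -7.53 and -7.50, not well above background, in ACKR4-negative cells. Since the cells were sorted by this locus, that difference of at least 107-fold checks the labels and is no finding. All 12 endothelial markers were well above background on every array. Of these 12, Esam, Emcn and Kdr fell in ACKR4-positive cells, against 3.71% of all genes, and with the arrays of a sort paired as a block Robo4 also fell (-1.30, adjusted p = 0.0214) while Tek rose (1.81, adjusted p = 0.00611). The calls of Esam and Kdr were lost with any 1 array left out and that of Emcn without ACKR4-negative replicate 1 or 2, those of Emcn and Kdr also with quantile normalization or median centring. Pecam1, which encodes CD31, had levels of 3.36 and 2.58 in ACKR4-positive cells, against 3.41 and 2.84 in ACKR4-negative cells.

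Of the 9 ligands, 1 passed the test in limma at an adjusted p under 0.05, and it was higher in ACKR4-positive cells (Cxcl10). Over all genes 5.62% were called, 1.91% higher and 3.71% lower in ACKR4-positive cells. At an unadjusted p under 0.05, 6 of the 9 passed, against 16.3% of all genes. Arrays with the same replicate number were taken to come from the same sort. With the sort as a block the fit called 7 of the 9, against 15.3% of all genes. Of these 7, 2 were higher in ACKR4-positive cells (Cxcl10 and Cxcl16), against 6.75% of all genes. The other 5 were lower (Cxcl13, Cxcl12, Cxcl9, Cx3cl1 and Cxcl1), against 8.55% of all genes. Cxcl13 entered the test only through the ACKR4-negative arrays, where it is high. Of the 8 ligands well above background on all 4 arrays the block called 6, against 11.8% of all such genes. The direction was the same in both sorts for 9 of 9 ligands (73.1% of all genes), with 2 higher and 7 lower. In 8 of the 9, the ACKR4-positive arrays did not overlap the ACKR4-negative arrays (44.9% of all genes). The counts at an unadjusted p, of direction and of overlap all include Cxcl13. Its entry through the ACKR4-negative arrays favours a fall, so Cxcl13 adds no support of its own to them. The median log2 fold change, ACKR4-positive over ACKR4-negative, was -1.14 over the ligands, -0.96 without Cxcl13, and 0.04 over all genes. The ligands were chosen with earlier results of these data known, so a count above the share of all genes is no independent evidence. Since each sample is a pool of sorted cells, fewer cells with a transcript and less of it per cell cannot be told apart.

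**Figure D1:**
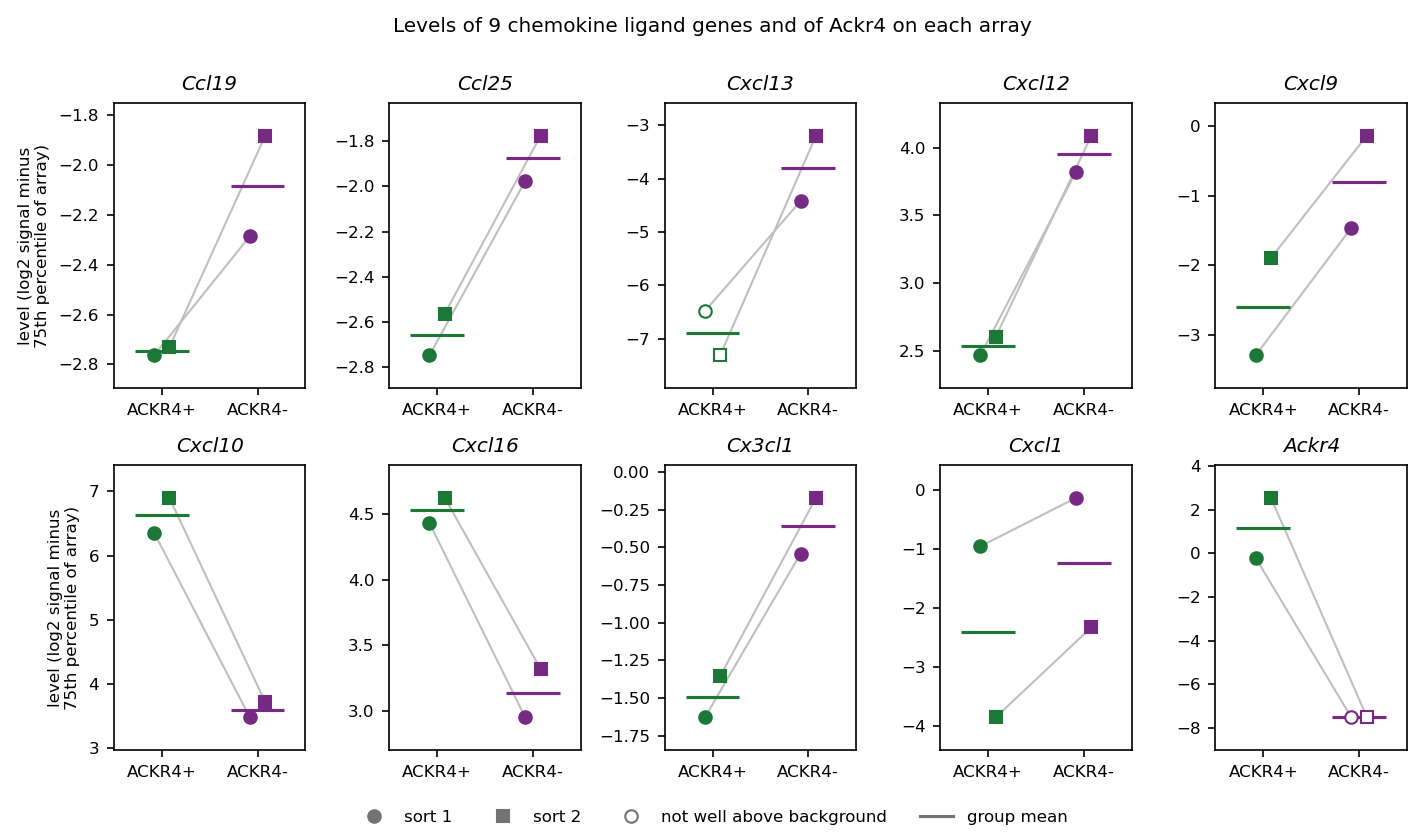
Level of each of the 9 ligand genes and of Ackr4 on each array (log2 signal minus the array's 75th percentile, a separate axis per gene), with ACKR4-positive arrays (ACKR4+, green) left of ACKR4-negative arrays (ACKR4-, purple). Circles are sort 1, squares sort 2, grey lines join arrays of 1 sort, bars are group means and open symbols were not well above background. Cxcl10 and Cxcl16 are higher in ACKR4-positive cells, the other 7 ligands are lower in both sorts, and the groups overlap in Cxcl1.

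**Figure D2:**
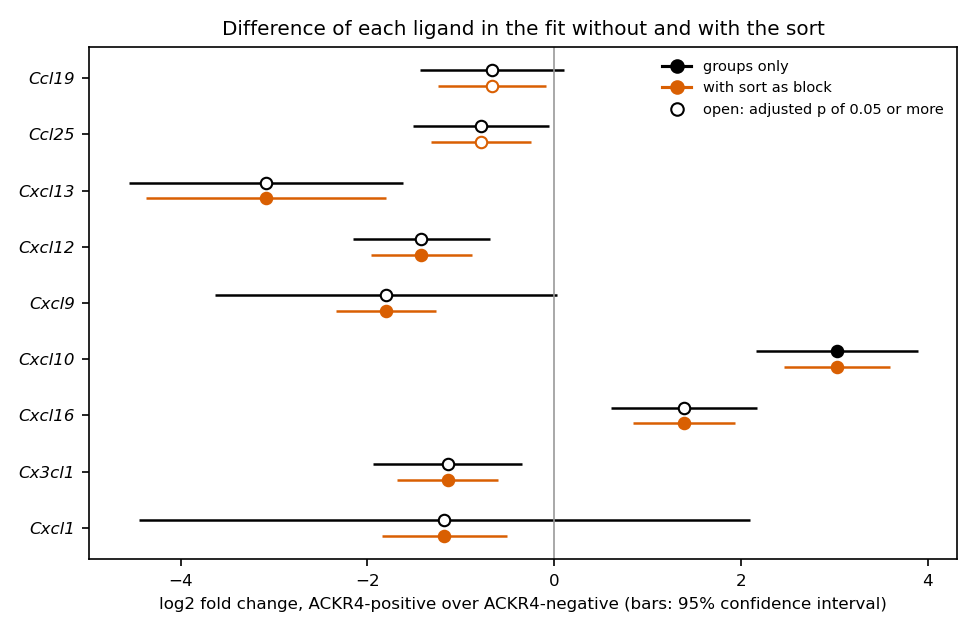
Log2 fold change of each ligand, ACKR4-positive over ACKR4-negative, with its 95% confidence interval, in the fit on groups only (black) and in the fit with the sort as a block (orange). Filled symbols have an adjusted p under 0.05, which holds for Cxcl10 in both fits and for 6 further ligands with the block.

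Cxcl10 and Cxcl9 encode ligands of CXCR3, a receptor of activated T cells and natural killer cells, and both are known as targets of interferon gamma. They differed in opposite directions. Cxcl10 had levels of 6.36 and 6.90 in ACKR4-positive cells, against 3.48 and 3.72 in ACKR4-negative cells. Both ACKR4-positive arrays lay above both ACKR4-negative arrays. Cxcl10 rose by a log2 fold change of 3.03 ± 0.33 (SE, n = 2 arrays per group), which is 8.17-fold, with an adjusted p of 0.0179 in limma and of 0.00140 with the sort as a block. The 95% confidence interval without the block was 2.17 to 3.89. The call was lost without ACKR4-negative replicate 1 (adjusted p = 0.0775) and without ACKR4-negative replicate 2 (adjusted p = 0.0608), at log2 fold changes of 2.91 and 3.15.

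A second Cxcl10 probe, designed on a cDNA clone, lies on chromosome 5 at 92776616 to 92776675 (mm9), and the first at 92775781 to 92775840. The second had levels of 1.73 and 3.49 in ACKR4-positive cells, against 0.03 and 2.07 in ACKR4-negative cells, so its groups overlap and it is higher in ACKR4-positive cells within each sort. Its difference was 1.57 ± 0.92 (SE) with an adjusted p of 0.563 in a fit over all 22183 tested probes and of 0.0106 with the sort as a block. Those fits called 5.38% and 14.6% of all probes. With the mean of both probes in place of the brighter one, Cxcl10 stood at 2.30 and was not called (adjusted p = 0.138), while the block with that mean called it.

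Cxcl9 had levels of -3.30 and -1.90 in ACKR4-positive cells, against -1.46 and -0.13 in ACKR4-negative cells. The groups did not overlap, and the second sort was higher than the first in both. Its log2 fold change was -1.80 ± 0.69 (adjusted p = 0.316), with a 95% confidence interval of -3.63 to 0.03, and it fell with the sort as a block (adjusted p = 0.00557). Within sorts the difference was -1.84 in sort 1 and -1.76 in sort 2. A second Cxcl9 probe, on the same transcript, differed by -0.94 ± 0.45 and was called in neither fit over all probes (adjusted p = 0.456, and 0.0504 with the sort as a block). The value of the first was -1.10 without ACKR4-positive replicate 1 and -2.50 without ACKR4-positive replicate 2.

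The promoter windows of both genes, from 250 bases before to 50 bases after the transcript start, are shown because the 2 genes lie on the same chromosome and are known to share inducers. They are from RefSeq (GRCm38.p6), on the minus strand, at chr5:92348840-92349139 for Cxcl10 and chr5:92328030-92328329 for Cxcl9. Capitals mark matches to 2 motifs, searched on both strands. The NF-kappaB form is GGG, any 5 bases and CC, and the interferon response element form is GAAA, any 2 bases and GAAA.
Cxcl10: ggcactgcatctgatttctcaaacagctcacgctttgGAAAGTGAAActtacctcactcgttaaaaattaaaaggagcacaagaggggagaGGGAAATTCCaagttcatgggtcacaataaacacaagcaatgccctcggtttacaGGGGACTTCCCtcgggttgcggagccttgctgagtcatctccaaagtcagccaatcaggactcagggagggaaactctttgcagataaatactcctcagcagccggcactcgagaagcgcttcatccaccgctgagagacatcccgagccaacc
Cxcl9: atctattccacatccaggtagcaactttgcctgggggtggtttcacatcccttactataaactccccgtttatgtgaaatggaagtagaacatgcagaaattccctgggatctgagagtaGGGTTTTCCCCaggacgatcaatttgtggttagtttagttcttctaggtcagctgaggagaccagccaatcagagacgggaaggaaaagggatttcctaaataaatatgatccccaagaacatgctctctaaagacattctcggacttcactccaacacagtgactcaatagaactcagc

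Cxcl10 held the interferon element, as GAAAGTGAAA, from base -213 to base -204 relative to the start. Its NF-kappaB matches were GGGAAATTCC from -159 to -150 and the overlapping GGGGACTTCC and GGGACTTCCC between -104 and -94. Cxcl9 held overlapping NF-kappaB matches between -130 and -120 and no match to the interferon element. Among 32851 promoter windows of the same length, 3.44% held the interferon element and 50.8% the NF-kappaB form. Of the ligands with a window in the table, which were all but Cxcl16, Ccl19 also held GAAAGTGAAA, and Ccl19, Cxcl13, Cxcl12 and Cxcl1 held the NF-kappaB form. A match describes the letters of the window and says nothing about binding.

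Cxcl16 and Cx3cl1 encode the chemokines that are made as membrane proteins on a mucin stalk and can be shed by the proteases ADAM10 and ADAM17. Cxcl16, the ligand of CXCR6, had levels of 4.43 and 4.63 in ACKR4-positive cells, against 2.95 and 3.32 in ACKR4-negative cells. The groups did not overlap, with ACKR4-positive cells higher. Its log2 fold change was 1.39 ± 0.29 (SE), or 2.63-fold, with a 95% confidence interval of 0.61 to 2.17. It was not called without the block (adjusted p = 0.0854) and rose with the sort as a block (adjusted p = 0.0135). The Cxcl16 probe is on chromosome 11, at 70267780 to 70267839 (mm9).

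Cx3cl1, the ligand of the monocyte and natural killer cell receptor CX3CR1, had levels of -1.63 and -1.36 in ACKR4-positive cells, against -0.54 and -0.17 in ACKR4-negative cells. Both ACKR4-positive arrays lay below both ACKR4-negative arrays. The log2 fold change was -1.14 ± 0.30 (adjusted p = 0.149), and Cx3cl1 fell with the sort as a block (adjusted p = 0.0248). In the sorts the difference was -1.09 and -1.19. Of the 2 shedding proteases, Adam10 differed by 0.16 ± 0.29 and Adam17 by -0.49 ± 0.33 (-0.93 in sort 1 and -0.05 in sort 2), neither called in either fit.

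Cxcl12 encodes the ligand of CXCR4 and of the scavenger ACKR3, and is known for keeping haematopoietic cells and plasma cells in stromal niches. Its brighter probe had levels of 2.47 and 2.60 in ACKR4-positive cells, against 3.82 and 4.09 in ACKR4-negative cells. The groups stood apart by more than the spread within either. The log2 fold change was -1.42 ± 0.28 (SE, adjusted p = 0.0710), with a 95% confidence interval of -2.16 to -0.68, and Cxcl12 fell with the sort as a block (adjusted p = 0.0124). Without the block it was called after normexp background correction (adjusted p = 0.0480), with a trended prior (adjusted p = 0.0476) and with the mean of its probes (-1.92, adjusted p = 0.0434).

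The second Cxcl12 probe is shown beside the first because the files list different transcripts of the gene for them. The first lies on chromosome 6 at 117131227 to 117131286 and the second at 117125026 to 117125085 (mm9, plus strand). Their first 30 bases are the following.
Cxcl12, first probe: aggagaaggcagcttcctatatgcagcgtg
Cxcl12, second probe: gctgtaaacctcctaccgtatgtgggaatt

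The second probe had levels of -2.18 and -2.51 in ACKR4-positive cells, against -0.31 and 0.48 in ACKR4-negative cells. Both ACKR4-positive arrays were lower, and the difference of -2.43 ± 0.39 (SE) was called in a fit over all 22183 tested probes (adjusted p = 0.0420). It was not called with any 1 array left out, at adjusted p-values of 0.0652 to 0.150. Whether the difference varies between the 2 probes was not tested.

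Ccl19 and Ccl25, which encode ligands that ACKR4 removes, had lower levels in ACKR4-positive cells in each sort, and neither was called in either fit when read from its brightest probe. For Ccl19 that probe lies outside the RefSeq transcript, and whether it reads Ccl19 RNA was not settled. Ccl19, a ligand of CCR7, had levels of -2.76 and -2.73 in ACKR4-positive cells, against -2.29 and -1.88 in ACKR4-negative cells. The groups did not overlap, and the ACKR4-positive arrays lay closer together than the ACKR4-negative ones. The log2 fold change was -0.66 ± 0.29 (SE), with an adjusted p of 0.396 and of 0.128 with the sort as a block. The 95% confidence interval, -1.44 to 0.11, includes 0 and a fall of more than 2-fold.

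The brightest of the 3 Ccl19 probes lies wholly before the RefSeq start of Ccl19, from base -131 to base -72, and the next straddles the start, from -27 to 33. Both stretches are in capitals in the promoter window (RefSeq, GRCm38.p6, chr4:42756316-42756615, minus strand).
Ccl19: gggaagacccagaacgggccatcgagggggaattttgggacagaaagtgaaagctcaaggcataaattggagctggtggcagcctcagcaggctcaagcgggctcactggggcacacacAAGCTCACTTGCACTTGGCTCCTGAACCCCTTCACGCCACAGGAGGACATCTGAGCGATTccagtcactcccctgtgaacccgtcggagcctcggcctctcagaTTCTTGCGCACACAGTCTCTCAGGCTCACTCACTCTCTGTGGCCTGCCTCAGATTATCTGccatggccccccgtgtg

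The brightest probe also matches the start of Gm12407, a gene model on the same chromosome, and RefSeq lists further Ccl19 copies and pseudogenes there, so the copies cannot be told apart. The third probe lies outside that window, at chromosome 4, 42250105 to 42250164 (mm9). It had levels of -3.60 and -4.48 in ACKR4-positive cells, against -2.35 and -2.29 in ACKR4-negative cells. All 3 probes were lower in ACKR4-positive cells in both sorts, by -0.66, -0.87 and -1.72 on average. The third was called with the sort as a block (adjusted p = 0.0195) and not without it (adjusted p = 0.107). With the mean of the 3 probes Ccl19 stood at -1.08, and it was not called in either fit.

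Ccl25, the ligand of CCR9 known from thymus and small intestine, had levels of -2.75 and -2.56 in ACKR4-positive cells, against -1.98 and -1.78 in ACKR4-negative cells. ACKR4-positive cells were lower in both sorts, by -0.77 and -0.79. The log2 fold change was -0.78 ± 0.27 (SE), with an adjusted p of 0.273 and of 0.0729 with the sort as a block. Its 95% confidence interval was -1.51 to -0.05. A second tested probe of the gene differed by -0.70 ± 0.30, and the other 2 of its 4 probes were too dim to be tested.

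Ccl21a was read only through probes named for copies of the gene. The Ccl21 genes form a cluster of near-identical copies on mouse chromosome 4. A probe named Gm1987 in the files also lists the Ccl21a transcript, and a probe named Gm13304 lists Ccl21b and Ccl21d. The printed stretches of the 2 probes, 30 bases each, are shown because they differ only at the base in capitals, G21A (position counted from the first base printed, Gm1987 first). Over the 56 bases that the probes share when aligned without gaps, 54 match.
Gm1987: tatacctaactgaataaaaaGgtgatccag
Gm13304: tatacctaactgaataaaaaAgtgatccag

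The Gm1987 probe had levels of -4.76 and -4.64 in ACKR4-positive cells, against -1.997 and 0.17 in ACKR4-negative cells. ACKR4-positive cells were lower, though the ACKR4-negative arrays lay far apart. The difference was -3.79 ± 0.76 (SE, adjusted p = 0.0739 over all tested probes), and it fell with the sort as a block (adjusted p = 0.00719). It was -4.88 and called without ACKR4-negative replicate 1 (adjusted p = 0.0193), and -2.70 without ACKR4-negative replicate 2 (adjusted p = 0.0641). The Gm13304 probe had levels of 2.83 and 2.95 in ACKR4-positive cells, against 2.98 and 3.08 in ACKR4-negative cells, a difference of -0.14 ± 0.28 (adjusted p = 0.898). Which copies contribute to either signal cannot be told apart here, and neither value was counted among the ligands.

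Cxcl13 encodes the CXCR5 ligand made by follicular dendritic and marginal reticular cells. It had levels of -6.48 and -7.31 in ACKR4-positive cells, not well above background on either array, against -4.42 and -3.20 in ACKR4-negative cells. The signal was therefore measured only in ACKR4-negative cells, and it was at least 3.64-fold lower in ACKR4-positive cells. That bound sets each dim array at the lowest level that was well above background on it. The adjusted p was 0.0570, and 0.0165 with the sort as a block. Since the gene entered the test only through the group where it is high, these p-values are no support of their own for a difference. With normexp background correction, which compresses dim signals, the log2 fold change was -0.80 (adjusted p = 0.405). The bound therefore holds only for the levels as processed here.

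Cxcl1, a ligand of the neutrophil receptor CXCR2, had levels of -0.96 and -3.86 in ACKR4-positive cells, against -0.14 and -2.33 in ACKR4-negative cells. The groups overlap, because the first sort was higher than the second in both. The log2 fold change was -1.17 ± 1.23 (adjusted p = 0.780), and without ACKR4-positive replicate 2 it was 0.27. Within sorts ACKR4-positive cells were lower by 0.82 and 1.53 on the log2 scale.

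The ligands differed unequally between the sorts. In the fit with the block, the difference of sort 1 minus sort 2 over both groups was 2.54 ± 0.26 (SE) for Cxcl1 (adjusted p = 0.0172) and -1.36 ± 0.21 for Cxcl9 (adjusted p = 0.0381). None of the other 7 ligands differed between sorts at an adjusted p under 0.05, against 5.54% of all genes that did. For Cxcl1 the difference between sorts was larger than that between the sorted populations, and with the sort as a block Cxcl1 fell in ACKR4-positive cells (adjusted p = 0.0435).

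**Figure D3:**
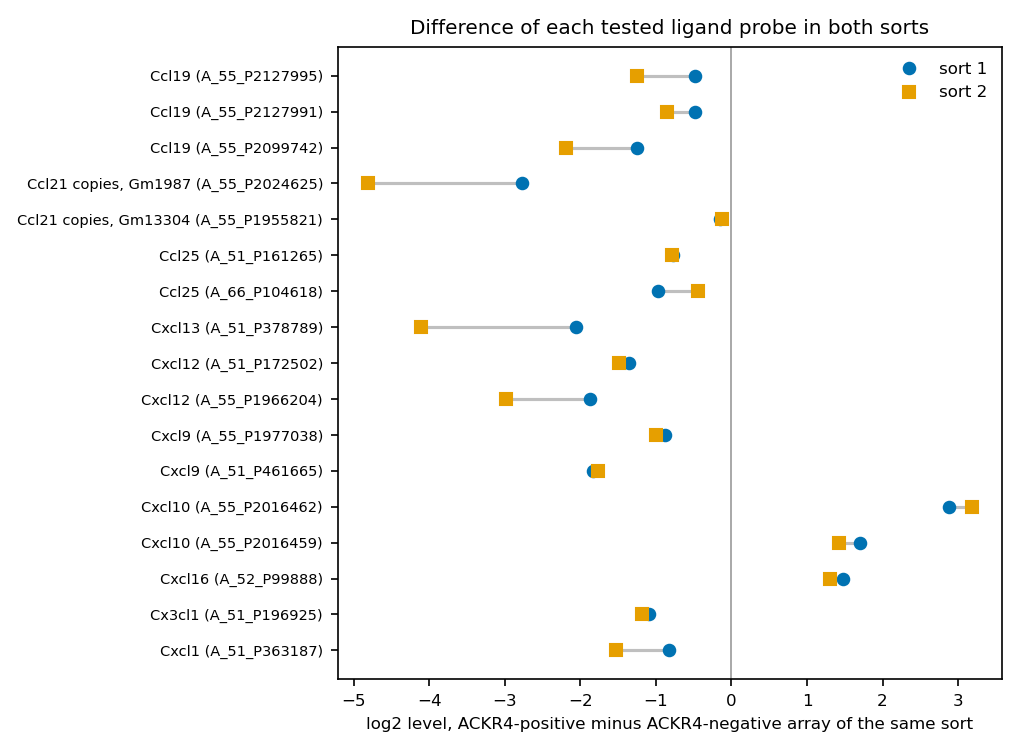
Difference in log2 level between the ACKR4-positive and the ACKR4-negative array of the same sort, for the 15 tested probes of the ligands and for 2 probes of Ccl21 copies (circles sort 1, squares sort 2). Probes of Cxcl10 and Cxcl16 lie right of 0 in both sorts and all others lie left of it, the Gm13304 probe close to 0.

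Of 12 chemokine receptor genes listed with these ligands, 7 were tested, and 3 rose and 1 fell in ACKR4-positive cells. The list also holds Ackr2, which is not a receptor of these ligands. The count includes Ackr4, the locus of the sort, and Cxcr4, which entered the test only through the ACKR4-negative arrays, so it was not set against the share of all genes. Besides Ackr4, the rises were those of 2 scavenging receptors. Ackr2, a scavenger of inflammatory CC chemokines, had levels of 5.36 and 5.63 in ACKR4-positive cells, against 1.45 and 2.04 in ACKR4-negative cells, a log2 fold change of 3.75 ± 0.34 (SE, adjusted p = 0.0135). Ackr3, which takes up CXCL12, had levels of 6.90 and 6.65 in ACKR4-positive cells, against 4.89 and 4.59 in ACKR4-negative cells (2.04 ± 0.29, adjusted p = 0.0327). Its call was lost with any 1 of the 4 arrays left out, at adjusted p-values up to 0.180, and with quantile normalization.

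Cxcr4, the signalling receptor of CXCL12, had levels of -7.93 and -6.30 in ACKR4-positive cells, not well above background, against -2.09 and -1.45 in ACKR4-negative cells. It was at least 14.9-fold lower in ACKR4-positive cells (adjusted p = 0.0219), but not past the threshold without ACKR4-negative replicate 2 (adjusted p = 0.0519). Since Cxcr4 entered the test only through the group where it is high, these p-values are no support of their own for a difference. With normexp its log2 fold change was -2.10, against -5.35 as processed here. Ackr1, Ccr7 and Ccr9 were not called, with log2 fold changes of 0.64 ± 0.49, -1.07 ± 0.95 and 0.36 ± 0.53. Cx3cr1, Cxcr2, Cxcr3, Cxcr5 and Cxcr6 were not tested, being well above background on both arrays of neither group. Cxcr5 and Cx3cr1 were well above background in both groups of sort 2, Cxcr3 on ACKR4-negative replicate 2, Cxcr6 on ACKR4-negative replicate 1 and Cxcr2 on no array.

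Among 10 other chemokine ligands tested, 0 rose and 2 fell in ACKR4-positive cells, against a share of 3.71% fallen over all genes. These were Pf4 (-7.24 ± 1.01, adjusted p = 0.0310) and Ppbp (-8.59 ± 1.37, adjusted p = 0.0429), the chemokines stored in platelets. Both calls were lost without ACKR4-negative replicate 2 and that of Ppbp also without ACKR4-negative replicate 1. Platelet and megakaryocyte genes as a list fell in 7 of 8 members, with Itga2b, Clec1b, Tubb1 and Gp5 at the smallest adjusted p, in 4 of 8 without ACKR4-negative replicate 2 and in 8 of 8 with the block. Their summed level, in multiples of the 75th percentile signal, was 0.35 and 1.82 in ACKR4-positive cells, against 88.3 and 210 in ACKR4-negative cells. Of this list Itga2b, Tubb1, Gp5 and Gp9 entered the test only through the ACKR4-negative arrays, where they are high. The counts of the list were therefore not set against the share of all genes. The part of platelet RNA in the values of other ligands was not tested. Cxcl11, the third CXCR3 ligand, had levels of 7.42 and 8.75 in ACKR4-positive cells, against 7.74 and 8.63 in ACKR4-negative cells, a difference of -0.10 ± 0.59, and was singled out after its values were seen. So was Cxcl14, which was not called without the block (adjusted p = 0.0722), fell with it (adjusted p = 0.00265) and was at least 11.6-fold lower in ACKR4-positive cells. Cxcl14 entered the test only through the ACKR4-negative arrays, so these p-values are no support of their own for a difference.

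Proteins that cut or hold chemokines were tested through 11 genes, of which 1 rose, against 1.91% of all genes, and 1 fell. The fall was that of Dpp4, which entered the test only through the ACKR4-negative arrays. It was therefore not set against the share of all genes. With the sort as a block Hspg2, which encodes the heparan sulfate proteoglycan perlecan, also fell (adjusted p = 0.00158). Without the block its log2 fold change was -3.97 ± 0.74 (adjusted p = 0.0620). Dpp4 encodes the surface peptidase that trims the first residues of CXCL12, CXCL10 and CXCL9. It had levels of -7.80 and -6.15 in ACKR4-positive cells, not well above background, against 0.39 and 0.37 in ACKR4-negative cells, so it was at least 66.3-fold lower (adjusted p = 0.0118). Since Dpp4 entered the test only through the group where it is high, that p-value is no support of its own for a difference. With normexp its log2 fold change was -3.91, against -7.35 as processed here. Sdc1, a heparan sulfate proteoglycan that can hold chemokines, had levels of 2.10 and 1.56 in ACKR4-positive cells, against -0.63 and -1.03 in ACKR4-negative cells (2.65 ± 0.34, adjusted p = 0.0253). The Sdc1 call was lost without ACKR4-positive replicate 1, without ACKR4-negative replicate 1 and without ACKR4-negative replicate 2 (adjusted p up to 0.111).

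Signalling genes known to govern these ligands were tested in 3 lists. Lymphotoxin and the noncanonical NF-kappaB pathway are known to drive Ccl19, Ccl21a and Cxcl13 in stroma. In that list 0 of 11 rose and 1 fell, against 3.71% of all genes fallen. It was Ltb, which encodes lymphotoxin beta. It had levels of 1.26 and 2.59 in ACKR4-positive cells, against 5.14 and 5.70 in ACKR4-negative cells (-3.49 ± 0.54, adjusted p = 0.0406). Its call was lost without ACKR4-positive replicate 1, without ACKR4-negative replicate 1 and without ACKR4-negative replicate 2 (adjusted p up to 0.115). With the block Map3k14, the kinase NIK of this pathway (-1.39, adjusted p = 0.0357), and Tnfrsf1a, a receptor of tumour necrosis factor and lymphotoxin alpha (-1.05, adjusted p = 0.0308), also fell. The receptor gene Ltbr differed by -0.58 ± 0.30 and was not called in either fit.

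Of 18 interferon response genes, limma called 0, with 3 at an unadjusted p under 0.05 and 0 with a trended prior, while 1 was called after normexp and 2 with the sort as a block. The median log2 fold change of this list was 0.41, with 14 of 18 members positive, against a median of 0.04 and 53.1% positive over all genes. The 2 genes called with the block were picked for that reason, and their SEs here are those of the fit without it. Ifit3 (1.41 ± 0.37), an interferon-induced antiviral gene, was higher. Oas1a (-3.73 ± 0.72), which makes an activator of RNase L, was lower. Of 12 genes of canonical NF-kappaB and acute inflammation, limma called 0, with 3 at an unadjusted p under 0.05 and 0 with a trended prior. Here also 2 were called with the block, Icam1, an adhesion molecule, and Il6, an inflammatory cytokine. Icam1 was higher (1.20 ± 0.28, SE of the fit without the block). Il6 was at least 3.99-fold lower, a bound since it was not well above background in ACKR4-positive cells. Il6 entered the test only through the ACKR4-negative arrays. With 15.3% of all genes called with the block, neither list's count of 2 stands clear of that share.

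**Figure D4:**
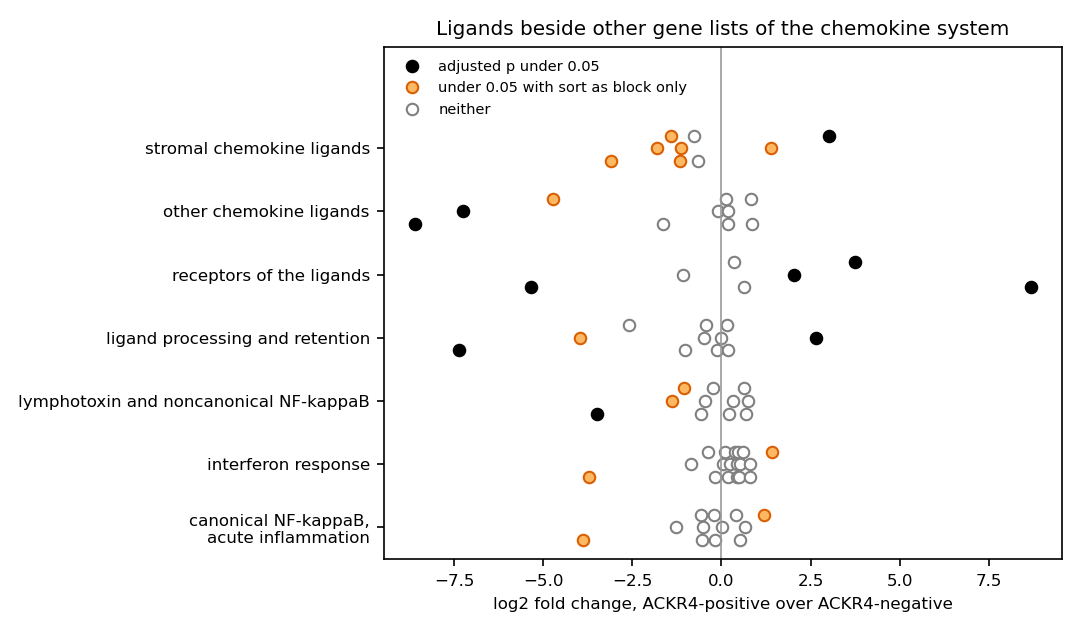
Log2 fold change, ACKR4-positive over ACKR4-negative, of every tested gene in 7 gene lists, with 1 point per gene and points spread vertically within a list for legibility. Black points had an adjusted p under 0.05, orange points only with the sort as a block, and open points in neither fit. The receptor list holds 3 black points right of 0 and 1 left of it, and the interferon list holds none.

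Markers of other cells that make these ligands were measured beside them, as summed levels in multiples of the 75th percentile signal. For 12 fibroblastic reticular genes the sum was 2.81 and 3.85 in ACKR4-positive cells, against 3.05 and 4.65 in ACKR4-negative cells. The groups overlap, and of 9 tested members Il7, a lymphocyte survival factor, fell by at least 1.69-fold, with levels of -7.73 and -7.15 in ACKR4-positive cells, not well above background, against -4.94 and -4.90 in ACKR4-negative cells. That call was lost with normexp (log2 fold change -0.44) and without ACKR4-positive replicate 1, ACKR4-negative replicate 1 or ACKR4-negative replicate 2. Pdpn, Pdgfra and Dpt were too dim to be tested. Pdpn was well above background in both groups of sort 2 and in neither of sort 1. Pdgfra was so only on ACKR4-negative replicate 2 and Dpt on no array. Col1a1, Col1a2, Col3a1, Dcn, Lepr and Tcf21 were well above background on every array. With the block Il7, Pdgfrb, Lepr and Tcf21 were lower and Dcn and Col3a1 higher. Il7 and Pdgfrb entered the test only through the ACKR4-negative arrays, so these calls were not set against the share of all genes.

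For 10 macrophage and monocyte genes the sum was 0.90 and 1.76 in ACKR4-positive cells, against 3.02 and 5.01 in ACKR4-negative cells, with no overlap. Lyz2, a lysozyme gene, made that separation, since without it the sums were 0.89 and 1.45 in ACKR4-positive cells, against 0.96 and 2.25 in ACKR4-negative cells, which overlap. Limma called 0 of 7 tested members, 2 passed at an unadjusted p under 0.05, 0 were called with a trended prior, and with the block Marco, Lyz2 and C1qa were lower. Lyz2 and C1qa entered the test only through the ACKR4-negative arrays, so these calls were not set against the share of all genes. Follicular dendritic and marginal reticular genes summed to 364 and 430 in ACKR4-positive cells, against 388 and 346 in ACKR4-negative cells. Clu, Mfge8 and Fcgr2b, which other cells also express, made nearly all of it, and the other 6 genes summed to 1.13 and 1.03 in ACKR4-positive cells, against 3.55 and 1.78 in ACKR4-negative cells, with Tnfsf11 well above background on no array. Of this list 0 of 8 were called, with 0 at an unadjusted p under 0.05. With the block 1, Serpina1a, was lower, against 8.55% of all genes. For the dendritic cell list, with 3 tested genes, and the granulocyte list, also with 3, limma called 0 in each. Neither had a member at an unadjusted p under 0.05 or with a trended prior, and the block called 0 of the dendritic cell list and S100a9, lower, of the granulocyte list. S100a9 entered the test only through the ACKR4-negative arrays. Of 8 lymphocyte genes Lck, a T cell kinase, fell, against 3.71% of all genes. Lck had levels of -1.32 and -0.78 in ACKR4-positive cells, against 0.90 and 1.00 in ACKR4-negative cells. Of 4 lymphatic genes Mmrn1, which platelets also carry, fell (adjusted p = 0.0116). Mmrn1 entered the test only through the ACKR4-negative arrays. That call was therefore not set against the share of all genes, and its p-value is no support of its own for a difference. The Lck call was lost with any 1 of the 4 arrays left out. The part of any of these cells in the ligand values was not tested.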

How the data were processed

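RNA of sorted cells was amplified from 6 to 20 ng and hybridised to 1-colour Agilent arrays. Per the file headers, the authors' Feature Extraction 10.7.3.1 gave each spot's processed signal, a background-subtracted intensity that was not scaled between arrays. The deposited series table is also an intensity, which the values show was scaled to a 75th percentile near 1500 with a floor of 15, and it served as an alternative. For the levels used here, the log2 processed signals of a probe's spots not marked as outliers were averaged and the array's 75th percentile was subtracted. Testing required that in 1 group or both, each array had over 50% of the probe's spots well above background, and a gene was read from its brightest tested probe. Groups were compared in limma 3.58.1 (R 4.3.3; lmFit, eBayes, 2-sided, Benjamini-Hochberg over 17362 genes, threshold 0.05). Other versions were jsonlite 2.0.0, Python 3.11.15, pandas 2.3.3 and matplotlib 3.10.9. The procedure was tested on simulated data. The number of arrays limits the precision, and p-values measure the spread between pools of 2 sorts.

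The replicate number is the sort: titles give both arrays of a number the same mouse number, the design names 2 independent sorts, and same-numbered arrays deviated together (r = 0.605). Blocked values stand beside ligand results and list members whose call they change, in some lists by name only. A fold is given as a lower bound when 1 group was not well above background on either of its arrays. Such a bound holds for the levels as processed here. For a gene tested only through the group where it is high, p-values and calls are no support of their own for a difference. Normexp gave changes smaller than the bound for Ackr4, Cxcl13, Cxcr4, Dpp4 and Il7.

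The ligands and the 15 other gene lists were chosen with earlier results of these data known. All 10 ligands and Ackr4 are named, with the genes of the receptor list. Of the other lists the called members are named (the 4 with the smallest adjusted p where more were called). Genes named beyond that rule, such as those called only with the block, Pecam1, Adam10, Adam17, Ltbr, Cxcl11 and Cxcl14, were chosen after their values were seen. Probe positions are those of the files (mm9), and promoters are RefSeq windows on GRCm38.p6, searched by motif as a description. Alternatives were other background corrections, scalings, filters, probe rules, priors and thresholds, the block, and leaving out each array.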

Additional observations from a re-analysis of the deposited data

How the results depend on the processing

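With 2 arrays per group, precision was low and calls moved more than values. Over all genes, 976 calls became 441 with the stricter filter, 2656 with the replicate block and 387 to 892 with 1 array left out. Ligand calls, 1 of 9, became 2 with normexp and with a trended prior, 4 at an adjusted p under 0.1, and 0 to 1 with 1 array left out, the call being lost without ACKR4-negative replicate 1 or 2. Calls in the other lists, 20 genes, became 6 with the stricter filter, 41 with the block and 11 to 21 with 1 array left out. With the replicate block, which pairs the arrays of a sort, 7 ligands were called, and added after seeing the data were the block with normexp (7), quantile normalization (5), the deposited table (7) and the mean of a gene's probes (7). In the order block, block with normexp, with quantile normalization, with the deposited table and with the mean of probes, ligands called in blocked fits only had log2 fold changes as follows. Cxcl9 had -1.80, -1.41, -1.74, -1.80 and -1.37, Cxcl16 had 1.39, 1.37, 1.46, 1.40 and 1.39, and Cx3cl1 had -1.14, -0.97, -1.11, -1.12 and -1.14. The block with quantile normalization did not call Cxcl13 and Cxcl1, and the other 4 gave -3.09, -0.80, -2.74 and -3.09 for Cxcl13 and -1.17, -0.76, -1.24 and -1.17 for Cxcl1. Cxcl12 became called at -1.42 with normexp, -1.92 with the mean of probes, -1.42 with a trended prior, and at -1.42, -1.42, -1.39, -1.42 and -1.92 in the blocked fits. Cxcl10 lost its call with the mean of probes (2.30) and ranged from 2.76 to 3.30 with 1 array left out. Cxcl1 turned to 0.27 without ACKR4-positive replicate 2 and ranged from -2.62 to 0.27 with 1 array left out. Some settings also put fewer genes or arrays in the fit, and the cause of these changes was not tested. Where 1 array is left out, the lone array of its group is assumed to vary like the other group. Ccl19 and Ccl25 were called in no setting, and no other ligand changed direction in any setting. Under the stricter filter Cxcl13 and Ackr4 were not tested. No block by slide exists, all arrays being on 1 slide. Dim signals limit Cxcl13, whose level in ACKR4-positive cells is a bound.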
